A study of Mus musculus with 18 samples.

Results

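Neutrophil granule genes encode the proteases, antimicrobial proteins and metalloproteinases that granulocytes pack into granules during their development in bone marrow. The 10 genes described here were chosen by name and ordered by the granule that holds their product: Mpo, Elane, Prtn3 and Ctsg for primary granules, Ltf, Camp, Ngp and Lcn2 for secondary granules, and Mmp8 and Mmp9 for tertiary granules. They are 10 of 19752 genes that the arrays measured with a probe set annotated to a single gene, and each had 1 such probe set. Mmp8 is counted as tertiary here, although its product is also widely described as a secondary granule protein.

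Granules form in sequence as a neutrophil matures. Primary (azurophil) granules are filled at the promyelocyte stage, secondary (specific) granules at the myelocyte and metamyelocyte stages and tertiary (gelatinase) granules at the band stage, and each protein goes to the granules being made while its gene is transcribed. The transcripts of primary granule genes are therefore known to be scarce in neutrophils that have left the marrow, while the proteins stay stored in the cells. The transcription factor PU.1, encoded by Spi1, acts on early granule genes together with MYB and C/EBP factors, and C/EBP epsilon, encoded by Cebpe, is required for secondary granule genes.

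The data are 18 microarrays (Affymetrix Mouse Gene 1.0 ST), a pair for every one of 9 sorted immune populations. Donor mice were C57BL/6 males 6 weeks old, and all populations are labelled 2 h after interferon gamma (IFNg), of which 10000 U was injected under the skin. Every population was thus treated, and untreated mice were not analysed here. The groups were Ly6G+ granulocytes of the spleen (GN), splenic dendritic cells gated as CD11c+ MHC class II+ Flt3+ (DC), F4/80+ ICAM2+ macrophages of the peritoneal cavity (MF), and 6 lymphoid populations of the spleen, namely NK1.1+ TCRB- NK cells (NK), NK1.1+ TCRB+ T cells (NKT), CD4+ TCRB+ T cells (T4), CD8+ TCRB+ T cells (T8), TCRgd+ TCRB- T cells (Tgd) and CD25+ CD4+ TCRB+ T cells (Treg). MF were the one population from another organ, so organ and cell type cannot be told apart for them. Whether both arrays of a population stem from different animals is not labelled, and p-values therefore reflect only the spread between arrays, which may be technical. Levels are log2 intensities, differences are log2 differences ± SE from limma, and a gene passed when its p, adjusted by Benjamini and Hochberg's method over the whole table, was under 0.05 and its difference at least 2-fold. The levels of different genes were not set against each other, since probe sets differ in brightness.

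Medians of all probe sets lay between 138.5 and 151.0 on the 18 arrays, and arrays of one population correlated at Pearson's r of at least 0.990. GN carried the markers of their label: all 13 measured mature granulocyte markers were higher in GN than in the lymphoid mean, where 7.62% of all genes were. Among them were the antimicrobial subunit gene S100a8, higher by 7.61 ± 0.33, the chemokine receptor gene Cxcr2 by 7.47 ± 0.24 and the G-CSF receptor gene Csf3r by 6.96 ± 0.24. Both DC arrays lay above the lymphoid arrays in the summed intensity of these 13 markers, replicate 2 further than replicate 1. The sum was 19027 on DC replicate 2 and 7378 on DC replicate 1. It was between 72037 and 79448 on the GN arrays and between 1244 and 2744 on the 12 lymphoid arrays. Results that rest on DC are therefore given array by array. In sorted populations, fewer cells of a type and less RNA per cell cannot be told apart.

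The promoters of the 4 primary granule genes are shown first because these genes had the smallest differences in GN and because their windows share a motif that those of the secondary genes lack. Each sequence is the 250 bases before the RefSeq start of the gene, 5′ to 3′ on the gene's strand, from build GRCm38.p6, and capitals mark AGGAAGT or its reverse complement ACTTCCT, an ETS-type motif of the kind PU.1 binds. Mpo lies at chr11:87793534-87793783 on the plus strand, Elane at chr10:79886062-79886311 on the plus strand, Prtn3 at chr10:79879417-79879666 on the plus strand and Ctsg at chr14:56102575-56102824 on the minus strand.
Mpo: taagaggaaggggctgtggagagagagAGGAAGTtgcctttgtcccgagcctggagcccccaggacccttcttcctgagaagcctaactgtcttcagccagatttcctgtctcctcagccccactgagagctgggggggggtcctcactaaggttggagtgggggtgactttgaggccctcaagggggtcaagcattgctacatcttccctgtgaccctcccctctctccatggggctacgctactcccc
Elane: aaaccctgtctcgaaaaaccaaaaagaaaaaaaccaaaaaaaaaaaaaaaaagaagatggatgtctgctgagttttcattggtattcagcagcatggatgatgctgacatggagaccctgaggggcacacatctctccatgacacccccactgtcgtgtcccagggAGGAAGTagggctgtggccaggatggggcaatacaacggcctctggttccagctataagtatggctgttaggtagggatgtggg
Prtn3: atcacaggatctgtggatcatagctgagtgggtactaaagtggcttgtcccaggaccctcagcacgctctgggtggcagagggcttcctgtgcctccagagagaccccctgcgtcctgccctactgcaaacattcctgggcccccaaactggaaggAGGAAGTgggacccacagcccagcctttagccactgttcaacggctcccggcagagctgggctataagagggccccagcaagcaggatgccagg
Ctsg: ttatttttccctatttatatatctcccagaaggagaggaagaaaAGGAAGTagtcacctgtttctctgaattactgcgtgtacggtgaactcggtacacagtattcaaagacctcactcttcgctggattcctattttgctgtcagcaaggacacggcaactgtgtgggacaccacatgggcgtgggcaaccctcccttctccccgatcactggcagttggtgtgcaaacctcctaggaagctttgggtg
The motif was found in 4 of 4 primary promoters, in 0 of 4 secondary promoters and in the 1 tertiary promoter held in the table, that of Mmp8, and both strands were searched. Of all 32851 promoter windows of this length in the RefSeq table, 7.69% held it. The match began 84 bases before the start in Elane (position -84) and at -94 in Prtn3, and both genes, which are immediate neighbours on chromosome 10, also held AACGG, a MYB-type motif, at -50 and -55. That motif stood in 14.5% of all windows and in no other of the 9 member windows. A C/EBP-type motif, TTNNGNAA or its reverse complement, was found in 0 of 4 primary promoters, in 3 of 4 secondary promoters (Ltf, Ngp and Lcn2) and in that of Mmp8, and in 36.8% of all windows. The motifs were chosen after the sequences had been read, a match is a description of letters and not of binding, and Mmp9 was the member without an entry.

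All 10 granule genes differed between populations, in a moderated F test of limma that 39% of all genes passed. GN had the highest mean for 9 of them, the exception being Prtn3, and DC came second for 8 of 10, the exceptions being Prtn3 and Mmp9. Ranges of the population means were between 2.09 and 3.58 for the primary genes, between 5.79 and 7.90 for the secondary genes, and 8.10 and 6.37 for Mmp8 and Mmp9. The plot of levels on each array shows these blocks, with the rows of Prtn3 and Mmp9 broken by a further bright population each.

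**Figure D1:**
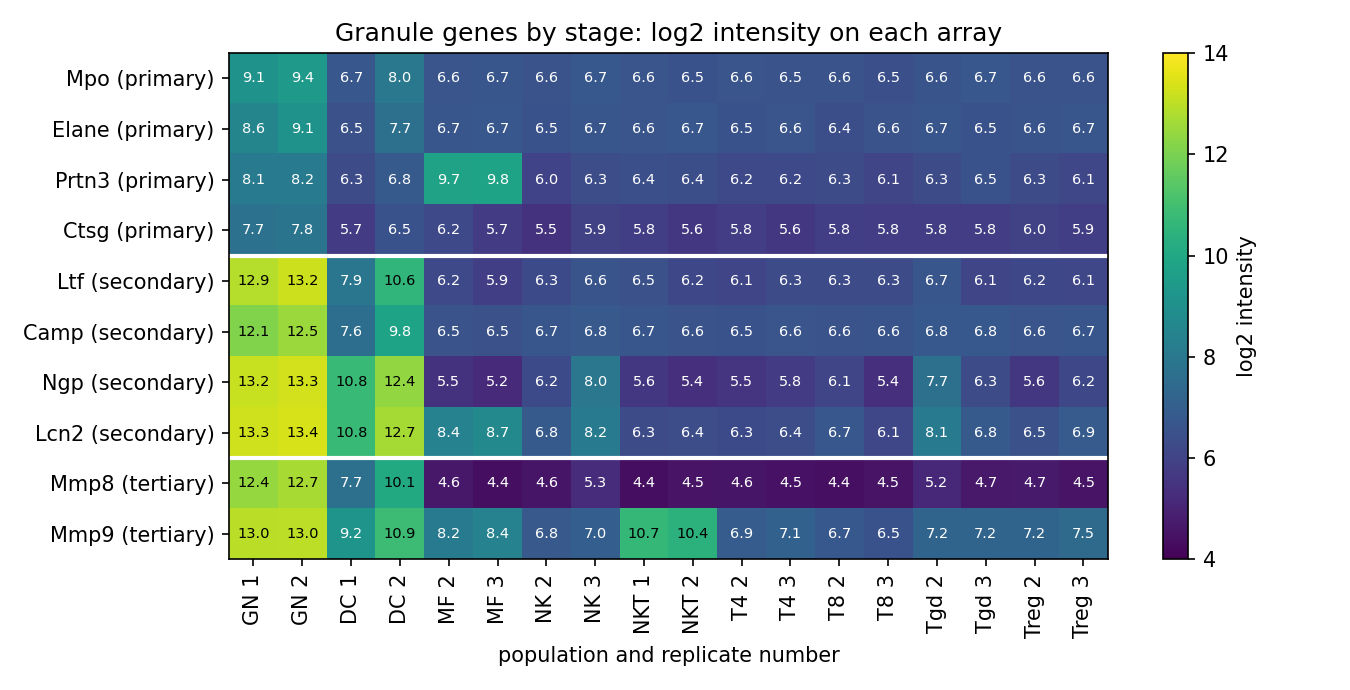
Log2 intensity of the 10 granule genes (rows, with their stage) on each of the 18 arrays (columns, population and replicate number), with the value printed in each cell and white lines between stages. The GN columns are brightest for all genes but Prtn3, which is brightest in MF, and DC replicate 2 is brighter than DC replicate 1 in every row.

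Primary granule genes were higher in GN than in lymphoid cells by between 1.87 and 2.68. Mpo, which encodes the peroxidase that makes hypochlorous acid, stood at 9.13 and 9.39 on the GN arrays, against a lowest, median and highest level of 6.46, 6.56 and 6.74 on the 12 lymphoid arrays. Both GN arrays lay above every other array. The difference from the lymphoid mean was 2.68 ± 0.19 (limma adjusted p = 7.29e-10).

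Elane, the gene of neutrophil elastase, stood at 8.55 and 9.12 on the GN arrays, against 6.40, 6.62 and 6.72 (lowest, median and highest) on the lymphoid arrays. Ctsg, the gene of the serine protease cathepsin G, stood at 7.73 and 7.84 in GN, against 5.46, 5.81 and 5.95 on the lymphoid arrays. For both genes the GN arrays again lay above all other arrays, with differences of 2.24 ± 0.19 and 2.00 ± 0.15 (adjusted p = 1.41e-08 and 2.99e-09). Prtn3, the gene of proteinase 3, stood at 8.14 and 8.15 in GN, against 6.03, 6.30 and 6.51 on the lymphoid arrays. Its 2 GN arrays were nearly identical and above all lymphoid arrays, with a difference of 1.87 ± 0.12 (adjusted p = 2.11e-10).

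Secondary granule genes had larger differences in GN. Ltf encodes lactoferrin, which binds iron, and stood at 12.89 and 13.24 on the GN arrays, against 6.08, 6.27 and 6.66 on the lymphoid arrays. Camp encodes the cathelicidin antimicrobial peptide precursor and stood at 12.11 and 12.49 in GN, against 6.52, 6.65 and 6.79 on the lymphoid arrays. Neither gene overlapped between GN and any other population, and the differences from the lymphoid mean were 6.77 ± 0.38 and 5.65 ± 0.30 (adjusted p = 3.73e-11 and 1.71e-11).

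Ngp encodes neutrophilic granule protein, a relative of the cathelicidins in mice, and stood at 13.16 and 13.31 in GN, against 5.37, 5.91 and 7.98 on the lymphoid arrays. Lcn2 encodes lipocalin 2, which binds bacterial siderophores, and stood at 13.26 and 13.39 in GN, against 6.12, 6.59 and 8.17 on the lymphoid arrays. The GN arrays lay above all others, but the lymphoid spread of both genes was wide, and is taken up with the lymphoid arrays. The differences were 7.10 ± 0.39 and 6.53 ± 0.37 (adjusted p = 3.10e-11 and 4.57e-11).

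Of the tertiary genes, Mmp8, which encodes neutrophil collagenase, stood at 12.40 and 12.68 in GN, against 4.37, 4.55 and 5.26 on the lymphoid arrays. Its difference of 7.89 ± 0.35 exceeded that of every other member (adjusted p = 1.42e-12). Mmp9, which encodes gelatinase B, stood at 12.98 and 13.01 in GN, against a median of 7.15 and a highest level of 10.66 on the lymphoid arrays. No array overlapped with GN, and the difference was 5.39 ± 0.25 (adjusted p = 2.55e-12).

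Thus 10 of 10 members passed as higher in GN than in the lymphoid mean, where 7.62% of all genes did, and 0 of 10 as lower, where 12.5% did. Their median difference was 5.52, against 0.12 over all genes. By stage the differences ran from 1.87 to 2.68 for the 4 primary genes and from 5.39 to 7.89 for the 6 secondary and tertiary genes. The primary genes thus lay below all other members on this scale, while secondary and tertiary genes overlapped. Whether stages differ was not tested. The 10 calls held under every alternative that was run. The plot of differences sets these values beside those against DC and MF.

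**Figure D2:**
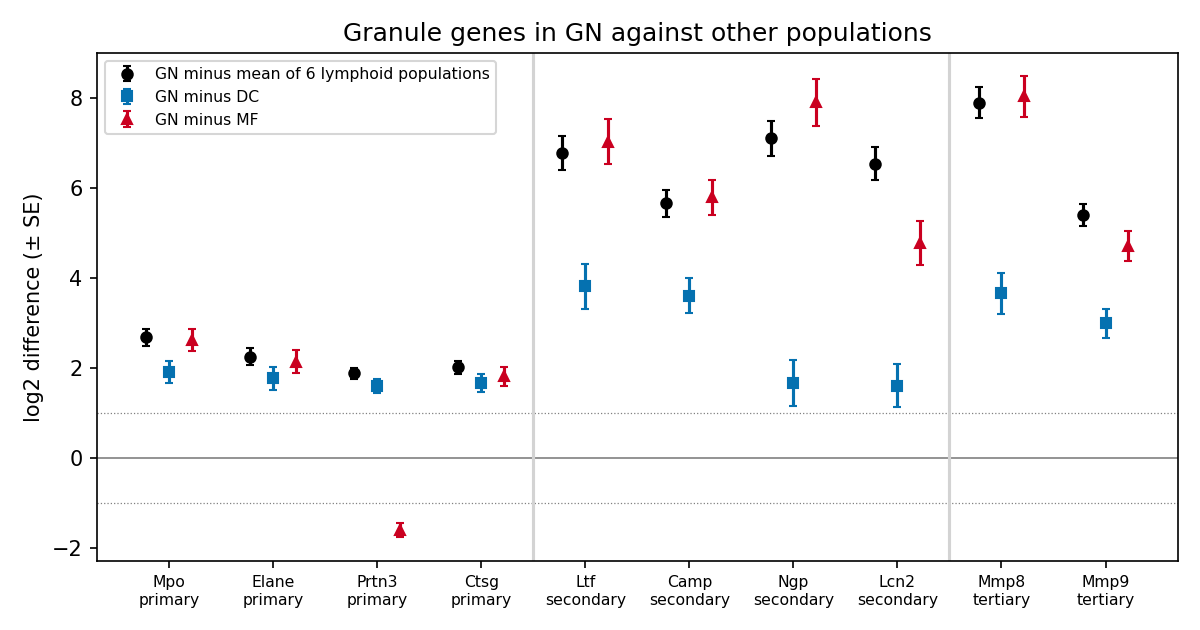
Log2 differences ± SE (limma, y axis) of the 10 granule genes (x axis, by stage) for GN minus the mean of 6 lymphoid populations, GN minus DC and GN minus MF, with dotted lines at a 2-fold difference. Primary genes sit near 2 against lymphoid cells and the others above 5, Ngp and Lcn2 drop to 1.66 and 1.60 against DC, and Prtn3 is below 0 against MF.

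Other genes of granule content were read from lists made by stage. Their median differences between GN and the lymphoid mean were 0.83 for the primary, 4.14 for the secondary and 1.57 for the tertiary list. Over all genes, 7.62% passed as higher in this comparison and 12.5% as lower. Of 6 measured genes in the primary list 2 were higher in GN than in the lymphoid mean, Lyz2 (lysozyme) by 5.26 ± 0.46 and the membrane protein gene Cd63 by 4.05 ± 0.18, both of which are also known from macrophages. The other 4 did not pass: the neutrophil serine protease gene Prss57 differed by 0.87 ± 0.10 and the progenitor-stage gene Ms4a3 by 0.80 ± 0.08, both under 2-fold, and Bpi and Gusb differed by 0.14 and -0.64. These 4 were named after their values were seen.

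Of 14 measured genes in the secondary list 11 were higher in GN and 0 lower. Chil1, a chitinase-like gene, was higher by 6.31 ± 0.30, its relative Chil3 by 6.03 ± 0.31, the adhesion receptor gene Ceacam1 by 5.70 ± 0.31 and the haptoglobin gene Hp by 5.54 ± 0.24. Of 6 measured genes in the tertiary list 4 were higher, Mmp25 (a membrane-bound metalloproteinase) by 4.40 ± 0.12, Adam8 by 4.33 ± 0.09, the ficolin gene Fcnb by 1.80 ± 0.11 and the heparanase gene Hpse by 1.34 ± 0.17. Hpse was lower in GN than in MF, at -3.13 ± 0.22, and than in DC, at -1.31 ± 0.22. Of 6 measured secretory vesicle and surface genes 3 were higher, namely Plaur, Fcgr3 and Cd14, by 5.14 ± 0.19, 4.83 ± 0.18 and 4.14 ± 0.18.

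Genes that load granules, hold their proteases in check or drive their transcription were compared between GN and the lymphoid mean. Of all genes, 7.62% were higher in GN there and 12.5% lower, and 4 storage genes are too few to be set apart from these shares. Of 4 storage and processing genes 1 was higher and 1 lower in GN: the protease gene Ctsl by 1.61 ± 0.13, and Cst7, which encodes cystatin F, an inhibitor of the proteases that activate serine proteases, at -2.84 ± 0.11. Of 10 measured protease inhibitors 6 were higher and 0 lower, among them Stfa2, a stefin that inhibits cysteine proteases, by 4.43 ± 0.10, Slpi, an inhibitor of elastase and cathepsin G, by 4.05 ± 0.15, Serpinb1a, which inhibits elastase, cathepsin G and proteinase 3, by 3.40 ± 0.25, and the metalloproteinase inhibitor gene Timp2 by 1.89 ± 0.23. Against MF, Serpinb1a and Timp2 were lower in GN, at -2.21 ± 0.32 and -1.42 ± 0.30.

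Of 10 transcription factor genes 6 were higher in GN than in the lymphoid mean and 2 lower, where 7.62% and 12.5% of all genes were. The 2 lower genes are too few to be set apart from that share. Spi1 was higher by 6.12 ± 0.14 and the C/EBP genes Cebpb, Cebpd and Cebpe by 2.86 ± 0.14, 2.76 ± 0.12 and 2.22 ± 0.11. Spi1 had levels of 12.75 ± 0.03 in GN, 12.19 ± 0.03 in DC (SD, n = 2 arrays each) and 12.03 and 11.97 on the MF arrays, with differences of GN from DC and from MF under 2-fold. Cebpe stood at 9.27 ± 0.09 in GN, 7.37 ± 0.23 in DC and 7.09 ± 0.07 in MF, and was higher in GN than in both by 1.91 ± 0.14 and 2.18 ± 0.14. The 2 genes that were lower in GN, singled out after their values were seen, were Myb, at -1.12 ± 0.10, and Irf8, at -1.20 ± 0.13. Cell cycle genes mark dividing cells. Of 11, 7 were higher in GN than in the lymphoid mean, with a median difference of 1.19, where 7.62% of all genes were. In DC 6 of 11 were higher than in the lymphoid mean and in MF 10 of 11, where 6.23% and 8.23% of all genes were. Against DC 0 of 11 were higher in GN and 0 lower, where 5.77% and 11.1% of all genes were. Against MF 0 of 11 were higher in GN and 2 lower, where 6.58% and 14.1% of all genes were. The counts against DC and MF do not set cell cycle genes apart from all genes. Early progenitor markers were higher in GN than in the lymphoid mean for 0 of 7, where 7.62% of all genes were, and lower for 1, where 12.5% were. Counts this small do not set these markers apart from all genes.

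Proteinase 3 was the member that GN did not lead. Prtn3 stood at 8.14 and 8.15 in GN, against 9.74 and 9.78 in MF, and all arrays of the other 7 populations lay between 6.03 and 6.85. MF were thus above GN without overlap, with GN minus MF at -1.62 ± 0.16 (adjusted p = 8.74e-08), where 14.1% of all genes were lower in GN. Against the lymphoid mean MF were higher by 3.49 ± 0.12 (adjusted p = 4.95e-14), where 8.23% of all genes were higher. Prtn3 was lower in GN than in MF under every alternative run.

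The other primary genes did not share this level. Elane, the next gene on chromosome 10, stood at 6.67 and 6.73 in MF, Mpo at 6.65 and 6.67, and Ctsg at 6.22 and 5.74, and MF minus the lymphoid mean was 0.11 ± 0.19, 0.07 ± 0.19 and 0.20 ± 0.15 (adjusted p = 0.68, 0.782 and 0.316). Of the secondary and tertiary genes, Ltf, Camp, Ngp and Mmp8 in MF lay below the lymphoid mean by amounts that did not pass, between -0.80 and -0.14. S100a8 stood at 5.75 and 5.90 in MF and Ly6g, the gene of the GN sort marker, at 5.70 and 5.97, for both genes below the highest lymphoid array. The summed intensity of all 13 granulocyte markers was between 8274 and 9312 in MF, above the lymphoid arrays. Of the 13, 5 passed as higher in MF than in the lymphoid mean, where 8.23% of all genes did, and 0 as lower, where 4.78% did. Padi4 was brighter in MF than in GN. After the lymphoid median was subtracted, Mcemp1, Lrg1 and Csf3r reached 53.4%, 28.0% and 11.3% of their GN intensity on MF replicate 2. Prtn3 was thus bright on MF arrays where 8 of the other 9 members, all but Lcn2, did not differ from the lymphoid mean by enough to pass. Among these 8, Mmp9 was set against a lymphoid mean that includes bright NKT arrays, as given below. The protein-coding neighbour on its other side, Plppr3, had means of 7.72 in GN, 7.24 in DC and 7.75 in MF and between 7.16 and 7.54 in the lymphoid populations.

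Lcn2 and Mmp9 were the other members with an adjusted p under 0.05 against the lymphoid mean in MF. Lcn2 stood at 13.26 and 13.39 in GN, against 8.42 and 8.69 in MF, where its difference from the lymphoid mean was 1.77 ± 0.37 (adjusted p = 0.000699). Mmp9 stood at 8.17 and 8.42 in MF and differed by 0.69 ± 0.25 (adjusted p = 0.0301), under 2-fold. The lymphoid mean of Mmp9 includes NKT, at 10.66 and 10.42. Both MF arrays lay above all lymphoid arrays but those of NKT. The lymphoid arrays other than NKT reached at most 7.46. Of the 10 members 2 thus passed as higher in MF and 0 as lower, where 4.78% of all genes were lower. Against MF, 9 of 10 members were higher in GN, where 6.58% of all genes were, by between 1.80 ± 0.20 for Ctsg and 8.03 ± 0.45 for Mmp8.

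Among lymphoid populations Mmp9 was the 1 member that differed. It stood at 10.66 and 10.42 in NKT, and the other 10 lymphoid arrays reached at most 7.46, with no overlap. Its means below GN ran from NKT at 10.54 ± 0.16 and DC (9.16 and 10.86 on its arrays) through MF at 8.29 ± 0.18 and Treg at 7.33 ± 0.18 to T8 at 6.62 ± 0.17. NKT and DC overlapped. The range over lymphoid means was 3.92 (moderated F test of limma, adjusted p = 2.24e-07), in a test that 9.95% of all genes passed.

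NKT showed no such level of the other granule genes. Mmp8, the other tertiary gene, stood at 4.37 and 4.52 in NKT and Ltf at 6.48 and 6.16, both below the highest of the other lymphoid arrays, and S100a8 at 5.52 and 5.39. The summed intensity of the granulocyte markers in NKT was between 1367 and 1404, inside the lymphoid range. The plot of Prtn3 and Mmp9 beside Elane and Mmp8 shows the population that sets each apart from its stage partner.

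**Figure D3:**
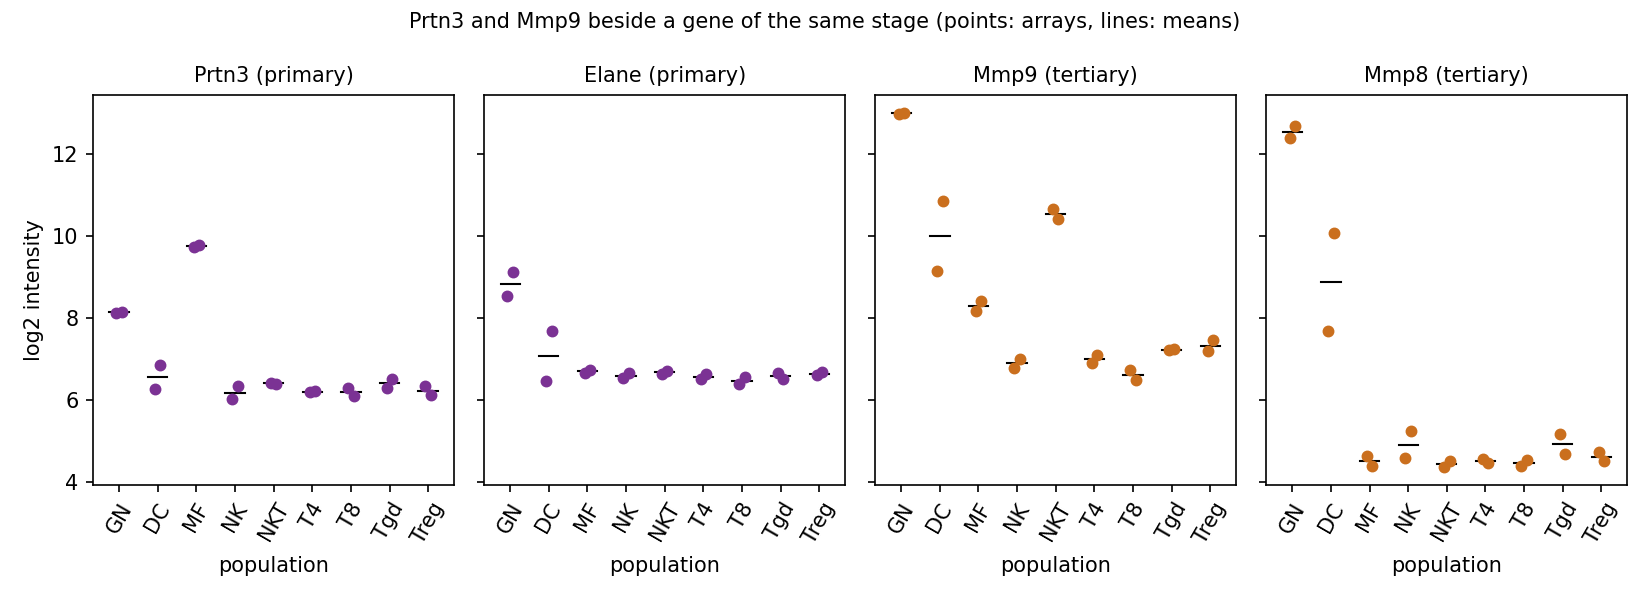
Log2 intensity (y axis) of Prtn3, Elane, Mmp9 and Mmp8 in the 9 populations (x axis), with points for the 2 arrays of each and a line at their mean. Prtn3 is highest in MF, where Elane is at the lymphoid level, and Mmp9 is high in NKT, where Mmp8 is at the lymphoid level.

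Ngp and Lcn2 varied between arrays of one lymphoid population. Ngp stood at 7.98 on NK replicate 3, against 6.25 on NK replicate 2, and at 7.68 on Tgd replicate 2, against 6.27 on Tgd replicate 3. Lcn2 stood at 8.17 and 6.84 on the same NK arrays and at 8.14 and 6.85 on the same Tgd arrays. The same 2 arrays were thus high for both genes, while the other 8 lymphoid arrays lay between 5.37 and 6.15 for Ngp and between 6.12 and 6.89 for Lcn2. Mmp8 was also highest there, at 5.26 on NK replicate 3 and 5.17 on Tgd replicate 2, against at most 4.73 on the other lymphoid arrays.

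Expressed as a percent of the GN intensity, after the lymphoid median of the gene was subtracted from both, Ngp and Lcn2 reached 2.00% and 1.88% on NK replicate 3 and 1.51% and 1.83% on Tgd replicate 2. S100a8 reached 0.27% and 0.58% on these arrays. It stood at 6.19 and 6.70 on them, against 5.82 on NK replicate 2 and 5.53 on Tgd replicate 3. Over all 13 markers the summed intensity was 2682 on NK replicate 3, against 2744 on NK replicate 2. It was 1765 on Tgd replicate 2, against 1639 on Tgd replicate 3. Mxd1 alone stood at 12.1% of GN on NK replicate 3 and 15.6% on NK replicate 2. The median level of the 13 markers was 6.23 on NK replicate 3, against 5.82 on NK replicate 2, and 6.47 on Tgd replicate 2, against 6.15 on Tgd replicate 3. Taken gene by gene, replicate 3 minus replicate 2 had a median of 0.32 in NK and of -0.09 in Tgd. Single markers lay between -0.22 and 1.02 in NK and between -1.17 and 0.30 in Tgd. All but Mxd1 and Trem1 were higher on NK replicate 3 than on NK replicate 2. All but Cxcr2, Mcemp1, Lrg1 and Padi4 were higher on Tgd replicate 2 than on Tgd replicate 3. Of the 13, 1 was at least 2-fold higher on NK replicate 3 and 1 on Tgd replicate 2. The part of granulocyte RNA in these levels was not tested. In the F test over lymphoid populations Ngp and Lcn2 did not pass (adjusted p = 0.0585 and 0.155).

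**Figure D4:**
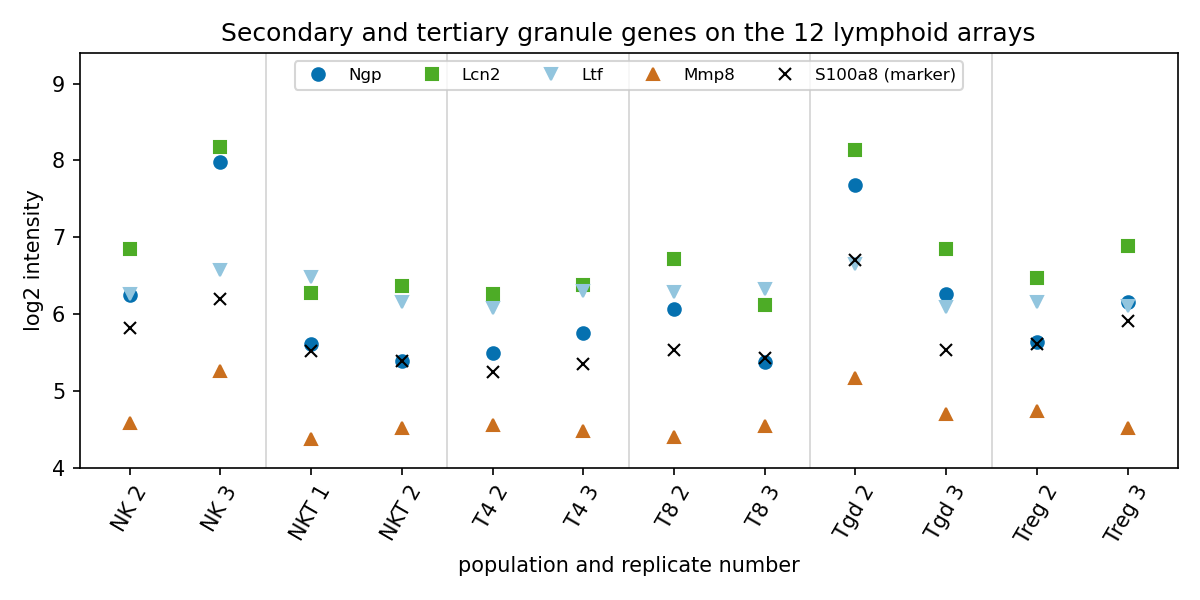
Log2 intensity (y axis) of the granule genes Ngp, Lcn2, Ltf and Mmp8 and of the granulocyte marker S100a8 on the 12 lymphoid arrays (x axis, population and replicate number). NK replicate 3 and Tgd replicate 2 are the highest arrays for Ngp, Lcn2 and Mmp8.

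DC carried secondary and tertiary granule transcripts on both arrays and primary ones on replicate 2. Mpo stood at 9.13 and 9.39 in GN, against 6.72 on DC replicate 1 and 7.99 on DC replicate 2. Elane stood at 6.47 and 7.68 on the DC arrays, Prtn3 at 6.27 and 6.85, and Ctsg at 5.75 and 6.52. On replicate 1 all 4 were thus within the range of the 12 lymphoid arrays, and on replicate 2 all 4 were above it.

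Over both arrays DC minus the lymphoid mean was 0.77 ± 0.19 for Mpo (adjusted p = 0.00298, under 2-fold), 0.48 ± 0.19 for Elane, 0.29 ± 0.12 for Prtn3 and 0.35 ± 0.15 for Ctsg, and none of the 4 passed. Without DC replicate 2 the values were 0.13, -0.13, 0.00088 and -0.03, and without DC replicate 1 they were 1.40, 1.09, 0.57 and 0.74, where Mpo and Elane passed. The lone DC array was then assumed to vary like the other populations. For these genes, 1 array carried what DC showed.

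Ltf stood at 12.89 and 13.24 in GN, against 7.92 on DC replicate 1 and 10.60 on DC replicate 2. Camp stood at 7.63 and 9.78 on the DC arrays, Ngp at 10.77 and 12.38, Lcn2 at 10.78 and 12.66, Mmp8 at 7.69 and 10.09 and Mmp9 at 9.16 and 10.86. Both DC arrays lay above all lymphoid arrays for Ltf, Camp, Ngp, Lcn2 and Mmp8, and above all but NKT for Mmp9 on replicate 1. Replicate 2 was above replicate 1 by between 1.61 (Ngp) and 2.67 (Ltf), and for primary genes by between 0.57 (Prtn3) and 1.26 (Mpo).

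Of the 10 members 6 passed as higher in DC than in the lymphoid mean, where 6.23% of all genes were, and 0 as lower, where 3.43% were. Ngp was higher by 5.43 ± 0.39, Lcn2 by 4.93 ± 0.37, Mmp8 by 4.24 ± 0.35, Ltf by 2.97 ± 0.38, Mmp9 by 2.40 ± 0.25 and Camp by 2.05 ± 0.30 (adjusted p between 2.65e-09 for Ngp and 2.13e-05 for Camp). Without DC replicate 2 the values were 4.63 for Ngp, 3.99 for Lcn2, 3.04 for Mmp8, 1.63 for Ltf, 1.56 for Mmp9 and 0.98 for Camp, so that Camp fell under 2-fold. With that array, NK replicate 3 and Tgd replicate 2 all left out, 5 of 10 members passed.

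Granulocyte markers moved with these values. All 13 were higher in DC than in the lymphoid mean, where 6.23% of all genes were, with a median of 2.54. Ly6g stood at 7.63 on DC replicate 1 and 10.26 on replicate 2, against 12.79 and 12.99 in GN. Markers of red pulp macrophages, phagocytes of the same organ, summed to 5261 on DC replicate 1 and 10095 on replicate 2, and those of red blood cells and platelets to 782 and 2032. Dendritic cell markers summed to 41569 and 38967. The part of other cells in the granule transcripts of DC was not tested.

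Set against GN, the granule genes did not stand at one common level on the DC arrays. The percents take intensity as proportional to transcript, which was not tested for bright or dim probe sets. After the lymphoid median of each gene was subtracted, Ltf, Camp, Mmp8 and Mmp9 reached 17.2%, 15.6%, 17.8% and 21.3% of their GN intensity on replicate 2, and the primary genes Mpo, Elane, Prtn3 and Ctsg reached 30.4%, 29.2%, 17.9% and 21.6%. Ngp and Lcn2 reached 54.9% and 62.9% on the same array. The 13 markers ran from 8.52% for Padi4 to 33.5% for S100a9, with a median of 17.0%, so that Ngp and Lcn2 lay above all of them and the other 8 members within their range.

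On DC replicate 1 Ngp and Lcn2 stood at 17.5% and 16.4% of GN, while Ltf, Camp, Mmp8 and Mmp9 stood at 1.94%, 1.95%, 3.08% and 5.36%. Primary genes lay between -2.72% (Elane) and 2.09% (Mpo), where a negative value is a level below the lymphoid median. The markers there ran from 0.98% to 19.9%, with a median of 6.36%. Over the 10 members the median was 2.02% on replicate 1 and 21.5% on replicate 2. With the lowest lymphoid array as background in place of the median, the median was 4.42% on replicate 1. Of the protease inhibitor genes named above, Slpi stood at 6.97% of GN on replicate 1 and 18.8% on replicate 2, Serpinb1a at 10.1% and 19.0%, Stfa2 at 1.27% and 1.34%, and Timp2 below the lymphoid median on both.

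**Figure D5:**
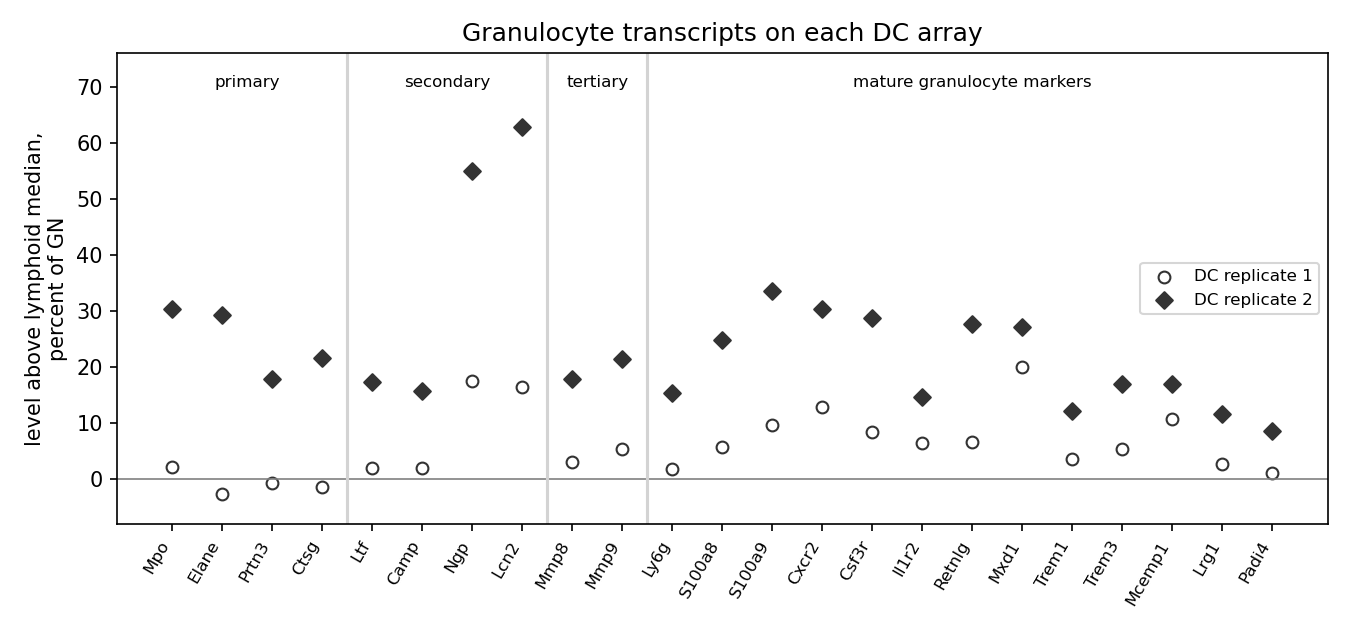
Intensity above the lymphoid median on each DC array, as a percent of the same for the mean of the 2 GN arrays (y axis), for the 10 granule genes and 13 mature granulocyte markers (x axis). Replicate 2 (filled) lies above replicate 1 (open) for every gene, and Ngp and Lcn2 are the highest on replicate 2 at 54.9% and 62.9%.

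All 10 members were nonetheless higher in GN than in DC, where 5.77% of all genes were, and 0 were lower, where 11.1% were. This comparison shares its arrays with those of GN and DC against lymphoid cells. The differences were 3.80 ± 0.50 for Ltf, 3.65 ± 0.45 for Mmp8 and 2.99 ± 0.32 for Mmp9 (adjusted p between 4.96e-07 and 4.82e-06), with Camp between Mmp8 and Mmp9. Primary genes differed by between 1.58 ± 0.16 for Prtn3 and 1.91 ± 0.24 for Mpo. Without DC replicate 1 the values were 2.47 for Ltf, 2.52 for Camp, 2.45 for Mmp8, 2.14 for Mmp9 and between 1.15 (Elane) and 1.30 (Prtn3) for the primary genes. Without DC replicate 2 they were 5.14 for Ltf, 4.67 for Camp, 4.85 for Mmp8, 3.83 for Mmp9 and between 1.87 (Prtn3) and 2.54 (Mpo) for the primary genes, and these 8 members passed either way. Ngp and Lcn2 differed by 1.66 ± 0.51 and 1.60 ± 0.49 (adjusted p = 0.0115 and 0.0105). Without DC replicate 1 these 2 stood at 0.86 and 0.66 and did not pass (adjusted p = 0.188 and 0.225), and without DC replicate 2 they stood at 2.47 and 2.54. Without GN replicate 2, where they were 1.59 and 1.53, they did not pass either (adjusted p = 0.0602 and 0.0557).

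Below GN and DC the population means lay close together for most members. For Mpo, MF at 6.66 ± 0.02 and NK at 6.65 ± 0.13 were followed by the other lymphoid populations down to T8 at 6.51 ± 0.07, and for Ltf the means ran from NK at 6.42 ± 0.23 to MF at 6.04 ± 0.26. Arrays of most neighbours in these orders overlapped. Ngp ran from NK at 7.12 ± 1.22 and Tgd at 6.97 ± 1.00 to MF at 5.34 ± 0.16, and Lcn2 from MF at 8.56 ± 0.19 to NKT at 6.32 ± 0.07.

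Genes outside the list with the most similar pattern were found by Pearson's r over the 18 arrays with the mean of each stage, among 3283 genes whose population means ranged over at least 2. For the secondary genes they were S100a8 (r = 0.997), the resistin-like gene Retnlg (0.996) and S100a9 (0.993), all granulocyte markers. For the tertiary genes they were Gcnt2 (0.992), Lst1 (0.981) and Mgam (0.975). For the primary genes they were Ckap4 (0.985), Upp1 (0.982) and Ubtd1 (0.980), in all 3 of which GN had the top mean and MF the next. The primary mean includes Prtn3, which was brightest in MF. Its r with the other primary genes was between 0.38 and 0.45, against between 0.96 and 0.99 among Mpo, Elane and Ctsg. The points of each correlation share the step between GN and the other arrays.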

How the data were processed

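The authors deposited 1 intensity value per probe set and array on a linear scale, for which the submitters' processing notes name RMA and Affymetrix Power Tools. Versions, the genome build and whether the 18 arrays were normalized together are not given in the sources used here. Of 24922 probe sets, 21425 had 1 gene symbol in GEO's platform annotation, 1399 had several and 2098 had none listed. Symbols were updated by Entrez number through RefSeq (GRCm38.p6), and 21347 of the single symbols matched. The brightest single-symbol probe set stood for each of 19752 genes.

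Log2 intensities of all arrays were fitted with limma 3.58.1 in R 4.3.3 (1 mean per population, eBayes with trend, 9 residual degrees of freedom, two-sided), with no filter, and the code was tested on simulated data. Contrasts and F tests each had p adjusted over all genes. Precision is limited by 2 arrays per population.

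The members, gene lists and tests were chosen with earlier results of these data known. All members are named, and up to 4 genes per granule list that passed with the largest difference between GN and lymphoid cells, plus the 3 genes most like each stage. Genes of those lists that were not measured with a single-symbol probe set are not counted. Alternatives were another normalization, eBayes without trend or robust, a pseudocount of 16, a filter on dim genes, another probe set rule, array weights, no fold minimum, a replicate block and each array left out, and for percents of GN another background, another normalization and each GN array alone. One more, without DC replicate 2, NK replicate 3 and Tgd replicate 2, was chosen after seeing the data.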

Additional observations from a re-analysis of the deposited data

How the results depend on the processing

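In GN minus the lymphoid mean, GN minus MF and the test over 9 populations, 10 of 10 members passed under each alternative run. In GN minus DC between 8 and 10 members passed when 1 array was left out, and in DC minus the lymphoid mean between 5 and 8. Leaving out 1 array gave between 1 and 3 members in the test over 6 lymphoid populations, where 1 passed with all arrays and without any other single array: Ngp and Lcn2 passed as well without DC replicate 1 or DC replicate 2, and Ngp without NK replicate 2 (adjusted p = 0.00857) or Tgd replicate 3 (adjusted p = 0.019). The DC arrays enter that test through the shared estimate of the spread. Under robust eBayes Ngp and Lcn2 did not pass in GN minus DC (adjusted p = 0.0588 and 0.0544). Values of members that had not passed changed sign: leaving out 1 DC array gave DC minus the lymphoid mean between -0.13 and 1.09 for Elane and between -0.033 and 0.74 for Ctsg, Elane was at -0.11 without DC replicate 2, NK replicate 3 and Tgd replicate 2, and MF minus the lymphoid mean for Ctsg lay between -0.041 and 0.44 when 1 MF array was left out. The cause was not tested. With no fold minimum the genes that passed numbered 12599 for GN minus lymphoid (3975 with the minimum), 11450 for GN minus DC (3336), 12949 for GN minus MF (4094), 7572 for DC minus lymphoid (1907), 9220 for MF minus lymphoid (2570), 13694 for the test over 9 populations (7695) and 5204 over lymphoid ones (1965), since the rule is looser. The replicate block gave 4003 genes for GN minus lymphoid and 3340 for GN minus DC and changed no count of members. Of the 18 pairs of populations that share replicate numbers, r of the replicate differences ran from -0.19 to 0.40. On the scale of DC as a percent of GN, the median over members lay between 1.81% and 4.42% on replicate 1 and between 20.8% and 24.97% on replicate 2 over the alternatives. Array medians of all genes lay between 7.09 and 7.24 as deposited and at 7.19 after quantile normalization, which changed no call of a member.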
